A study of Homo sapiens with 6 samples.

Results

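Histone lysine demethylases are the enzymes that take methyl groups off the tails of histones. Described here are 10 of their genes, PHF8, PHF2, KDM1A, KDM2B, KDM3A, KDM4A, KDM4B, KDM5A, KDM5B and KDM6B, taken by name as a list around PHF8. They are 10 of the 56303 gene symbols in the count table, and all 10 are among the 18243 symbols with enough counts to be tested. mRNA was sequenced from SW480 cells, a human colon adenocarcinoma line, to look for changes in gene level and splicing on depletion of RBM39. RBM39 is an RNA-binding protein that takes part in pre-mRNA splicing. The study went on to examine PHF8 as a partner of an isoform of CDK5RAP2, a centrosomal protein, at the promoter of SNAI2, which encodes the transcription factor Slug. That later work was done mainly in another colon cancer line, SW620. Both groups were SW480 cells infected with a hairpin-carrying lentivirus and selected with puromycin as stable lines, which the methods call clonal. The control group (shCtrl, genotype given as WT) carried a nonsilencing hairpin, the other group (shRBM39, given as RBM39 knockdown) carried a hairpin against RBM39, and each had 3 libraries, from what the methods call replicate experiments. Each condition is thus read in 1 kind of line with 1 named hairpin, and the effect of RBM39 depletion cannot be told apart from that of the line or of the hairpin.

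Demethylases fall into a pair of chemical classes. KDM1A oxidises mono- and dimethyl-lysine with a flavin cofactor, whereas all other genes of the list encode Jumonji enzymes, which need iron, oxygen and 2-oxoglutarate and can, in some subfamilies, remove trimethyl groups too. PHF8 and PHF2 form a subfamily with KDM7A: their PHD finger reads trimethylated H3K4 at promoters and their Jumonji domain removes mono- and dimethyl marks that go with silencing, so that PHF8 is known as a transcriptional coactivator. KDM3A acts on H3K9, KDM4A and KDM4B on H3K9 and H3K36, KDM5A and KDM5B on the promoter mark H3K4, KDM6B on the Polycomb mark H3K27, and KDM2B on H3K36 and H3K4 while it brings a Polycomb complex to CpG islands. What was measured here is their mRNA, not protein, enzyme activity or histone marks.

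The libraries held 18042924 to 20428901 counts, with 26514 to 27451 symbols detected, and the biological coefficient of variation was 0.035. RBM39 itself was at 441, 448 and 435 CPM (counts scaled to library size with TMM factors) in shCtrl and at 266, 276 and 292 in shRBM39. This is a log2 fold change of -0.67 (SE 0.04, adjusted p = 1.24e-16 in the edgeR quasi-likelihood test), so the labels and the targeted gene go the same way. The depletion was partial at the mRNA level, with RBM39 at 0.63 times its control level, so most of its mRNA was left. All 7 epithelial markers looked up were detected, with CDX2 at no less than 80 counts, and 4 of 8 markers of blood cells, fibroblasts and endothelium had under 10 counts in every library, among them PTPRC at 0. The summed markers of these other cells stood at 24.9 to 25.5 CPM in shCtrl and 30.9 to 36 CPM in shRBM39, and those of epithelium at 11721 to 12548 and 14774 to 15347 CPM. Of the other-cell markers that were detected, COL1A1 (0.81), PECAM1 (0.79) and VWF (1.39) were called higher in shRBM39 on the log2 scale. VWF had 10 to 34 counts, and CD68 (0.09) was not called. The epithelial markers went both ways: KRT8 (0.43) and KRT18 (0.24) rose on the log2 scale, CDX2 (-2.13, 22.4 to 4.65 CPM between its highest and lowest library), CDH1 (-0.39) and VIL1 (-0.09) fell, and EPCAM (0.02) and KRT19 (0.07) were not called. Their part in the results was not tested.

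After RBM39 depletion the demethylase genes did not move together. KDM6B, KDM5B and KDM4B fell to between 0.478 and 0.553 times their control level, PHF8 fell to 0.887 times, KDM1A and KDM5A rose to 1.25 and 1.23 times, and PHF2, KDM2B, KDM3A and KDM4A did not pass the test. In counts, 6 of the 10 genes were called at an adjusted p under 0.05, against 59.1% of all 18243 tested genes. Among them 2 were higher in shRBM39, where 29.2% of all tested genes were called higher, and 4 were lower, where 29.9% were called lower. The CPM values of the groups did not overlap for 7 of the 10 genes and for 63.3% of all tested genes, so that these shares are near those of the whole table. The median log2 fold change was -0.02 over the 10 genes and -0.01 over all tested genes. With library totals alone as the scaling, the median of all genes shifted by -0.12 on the log2 scale and the share of called genes that were higher went from 49.4% to 33.9%, and 3 of the 10 genes, PHF2, KDM2B and KDM4A, changed the sign of their small, uncalled differences.

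**Figure D1:**
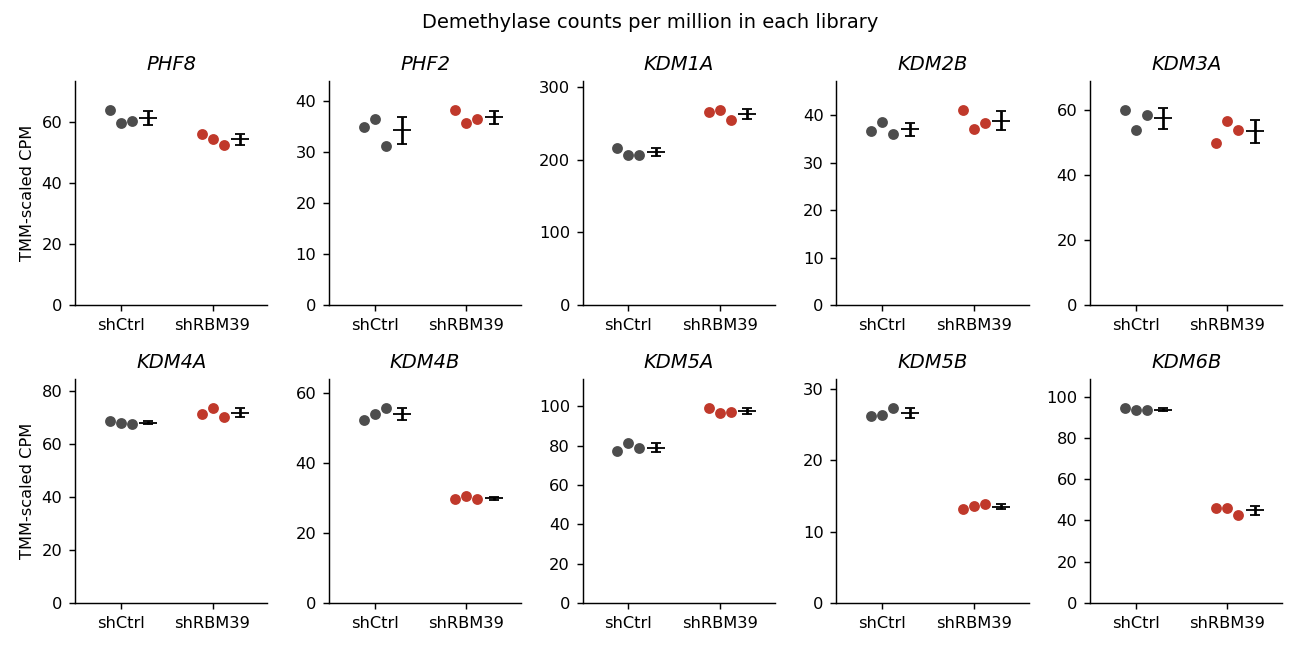
TMM-scaled CPM of each demethylase gene (y axes from 0), with 1 point per library, shCtrl in grey and shRBM39 in red, and the mean with its SD (n = 3) in black beside them. The libraries of shCtrl and shRBM39 do not overlap for PHF8, KDM1A, KDM4A, KDM4B, KDM5A, KDM5B and KDM6B and overlap for PHF2, KDM2B and KDM3A.

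PHF8 lies on chromosome X from 53936676 to 54048958 on the minus strand (GRCh38), with 9015 bases of merged exons in the count table. It was read with 1284, 1262 and 1224 counts in shCtrl and 1094, 935 and 1016 in shRBM39. Scaled, these were 63.7, 59.4 and 60.2 CPM in shCtrl and 55.8, 54.3 and 52.5 CPM in shRBM39. Every shRBM39 library was below every shCtrl library, with a gap that was small beside the level itself. PHF8 thus fell by 0.17 on the log2 scale (SE 0.05, 95% interval -0.27 to -0.08, adjusted p = 0.00156, edgeR quasi-likelihood test), which is 0.887 times the control level. Of all tested genes, 36.2% had a log2 fold change as low or lower. The direction and the call held in all 17 other fits, and the size went from -0.11 to -0.30 among them. CDK5RAP2 differed by 0.10 (SE 0.04, adjusted p = 0.0158), a sign that turned with library totals and in both fits on RPKM, and SNAI2 by 0.22 (SE 0.13, adjusted p = 0.143), with libraries that overlapped. Without shRBM39 replicate 1, CDK5RAP2 was no longer called (0.09, adjusted p = 0.0697) and SNAI2 was called (0.36, adjusted p = 0.0246).

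The promoter windows of PHF8 and of the 3 genes that fell most are given as the RefSeq sequences (GRCh38.p14) from 250 bases before to 50 bases after the annotated start nearest the start of the canonical transcript, each 300 bases long, 5′ to 3′ on the gene's strand. They are printed because the counts of these genes were lower in shRBM39. Capitals mark matches, on either strand, to the cAMP response element TGACGTCA or to ACGTG. The latter is the form searched here of the core that hypoxia-inducible factors bind. Both motifs were chosen with the values and sequences in view. The windows are chrX:54044424-54044723 on the minus strand for PHF8, chr17:7833967-7834266 on the plus strand for KDM6B, chr1:202808372-202808671 on the minus strand for KDM5B and chr19:4968863-4969162 on the plus strand for KDM4B.
PHF8: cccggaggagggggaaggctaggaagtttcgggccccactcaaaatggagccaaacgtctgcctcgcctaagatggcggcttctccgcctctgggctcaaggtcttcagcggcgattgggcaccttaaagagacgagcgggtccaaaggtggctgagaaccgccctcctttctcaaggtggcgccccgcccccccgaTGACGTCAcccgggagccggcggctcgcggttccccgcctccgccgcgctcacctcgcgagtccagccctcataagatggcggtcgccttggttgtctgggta
KDM6B: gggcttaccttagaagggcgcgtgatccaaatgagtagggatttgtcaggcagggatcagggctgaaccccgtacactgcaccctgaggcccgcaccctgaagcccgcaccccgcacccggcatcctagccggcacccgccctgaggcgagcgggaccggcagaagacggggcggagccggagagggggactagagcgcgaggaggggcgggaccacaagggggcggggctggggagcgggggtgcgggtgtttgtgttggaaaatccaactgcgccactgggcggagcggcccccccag
KDM5B: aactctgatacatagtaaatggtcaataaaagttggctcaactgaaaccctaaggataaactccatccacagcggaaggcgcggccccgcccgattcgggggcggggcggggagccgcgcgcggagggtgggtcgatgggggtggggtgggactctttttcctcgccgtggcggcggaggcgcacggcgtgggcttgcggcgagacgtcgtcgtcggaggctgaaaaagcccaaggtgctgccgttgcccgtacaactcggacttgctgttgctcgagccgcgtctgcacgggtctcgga
KDM4B: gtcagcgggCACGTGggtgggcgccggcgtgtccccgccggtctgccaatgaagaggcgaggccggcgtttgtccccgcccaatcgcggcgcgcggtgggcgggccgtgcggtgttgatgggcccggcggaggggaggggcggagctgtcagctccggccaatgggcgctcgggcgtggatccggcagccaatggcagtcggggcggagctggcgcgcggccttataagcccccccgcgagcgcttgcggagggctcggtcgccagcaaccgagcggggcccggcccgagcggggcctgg
The PHF8 window holds the 8-letter cAMP response element from base -53 before the start, a motif found in 1.85% of all 35116 promoter windows. The KDM4B window holds ACGTG on both strands, as the overlapping CACGTG near its 5′ end. The KDM5B and KDM6B windows hold neither of the motifs searched. Other forms of the hypoxia core were not searched or marked, among them GCGTG, which occurs in both of these windows. Over the 10 genes, 3 windows had ACGTG (KDM1A, KDM2B and KDM4B) against 21.4% of all windows, and 1 had the cAMP response element. PHF8 has 3 annotated windows and KDM6B 2, and for KDM6B the window shown lies upstream of the exons that the count table merged under that symbol.

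PHF2 is the nearest relative of PHF8 on the list and lies on chromosome 9 (93576407 to 93679587, plus strand). It was at 34.9, 36.4 and 31.2 CPM in shCtrl and 38.1, 35.6 and 36.3 CPM in shRBM39. The groups overlapped, and the log2 difference of 0.10 (95% interval -0.01 to 0.22) did not pass the test (adjusted p = 0.123, edgeR). It passed only without shCtrl replicate 2 (0.15, adjusted p = 0.044) and was -0.02 with library totals. Within a library, the log2 ratio of PHF8 to PHF2 counts was 0.87, 0.71 and 0.95 in shCtrl and 0.55, 0.61 and 0.53 in shRBM39. The ratio does not depend on the scaling of the libraries, and it was lower in all 3 shRBM39 libraries than in any shCtrl library, by 0.28 on average (difference -0.28, exact two-sided permutation test, p = 0.1, the smallest that 3 against 3 libraries allow).

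KDM7A, the other member of the PHF8 subfamily, was not on the list of 10 but in the list of further demethylases looked up beside it. It was at 59.1, 58.2 and 59.8 CPM in shCtrl and at 12.5, 14.2 and 12.9 CPM in shRBM39. The groups lay far apart, and KDM7A fell by 2.17 on the log2 scale (SE 0.06, adjusted p = 1.93e-25, edgeR), to 0.223 times the control level. Only 50 of the 18243 tested genes, 0.274%, had a change as low or lower. Its change was called in all 17 other fits, between -2.29 and -1.69. The 3 genes of the PHF8 subfamily thus differed widely, from the large fall of KDM7A through the small one of PHF8 to the uncalled difference of PHF2.

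KDM6B (chromosome 17, 7839904 to 7854796, plus strand) encodes the H3K27 demethylase also called JMJD3, an inducible gene of inflammatory and differentiation programmes. It was at 94.5, 93.3 and 93.4 CPM in shCtrl and at 46, 46.2 and 42.4 CPM in shRBM39. KDM6B fell by 1.06 on the log2 scale (SE 0.05, adjusted p = 3.30e-20, edgeR), to 0.478 times control, the lowest fold change of the 10 genes. The related KDM6A, whose gene is on the X chromosome and whose enzyme acts on the same mark, fell by 0.43 (SE 0.08, adjusted p = 1.20e-05). The log2 ratio of KDM6B to KDM6A was 2.62, 2.49 and 2.53 in shCtrl and 1.94, 1.95 and 1.84 in shRBM39. KDM6B therefore lost the larger share of its counts, by a difference in the ratio of -0.64 with no overlap (exact permutation test, two-sided, p = 0.1).

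KDM5B (chromosome 1, 202724491 to 202809470, minus strand), an H3K4 demethylase known as JARID1B and as a marker of slow-cycling tumour cells, was at 26.2, 26.3 and 27.3 CPM in shCtrl and at 13.2, 13.6 and 13.8 CPM in shRBM39. It fell by 0.98 (SE 0.07, adjusted p = 1.29e-14, edgeR) to 0.508 times control. KDM5A (chromosome 12, 280129 to 389454, minus strand), the retinoblastoma-binding enzyme with the same substrate, went the other way. It was at 77, 81.3 and 78.7 CPM in shCtrl and 99.1, 96.3 and 97 CPM in shRBM39, a rise of 0.30 (SE 0.04, adjusted p = 1.08e-07). Another relative, KDM5C, fell by 0.33 (SE 0.04, adjusted p = 1.17e-09). The log2 ratio of KDM5A to KDM5B went from 1.56, 1.63 and 1.53 to 2.91, 2.82 and 2.81. This was the widest shift among the 5 ratios compared, 1.28 on the log2 scale with no overlap (exact permutation test, p = 0.1).

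KDM4B (chromosome 19, 4969113 to 5153595, plus strand), an H3K9 demethylase whose gene is known to be induced by low oxygen and by oestrogen receptor, was at 52.2, 54 and 55.6 CPM in shCtrl and at 29.7, 30.4 and 29.5 CPM in shRBM39. It fell by 0.85 (SE 0.05, adjusted p = 1.68e-16, edgeR) to 0.553 times control. KDM4A (chromosome 1, 43650158 to 43705515, plus strand), its close relative, was at 68.5, 67.9 and 67.5 CPM against 71.4, 73.6 and 70.3 CPM. These groups did not overlap, yet the log2 difference of 0.08 (95% interval -0.01 to 0.16) did not pass the test (adjusted p = 0.117) and was -0.05 with library totals and -0.04 in the fits on RPKM. The log2 ratio of KDM4A to KDM4B rose from 0.39, 0.33 and 0.28 to 1.27, 1.28 and 1.25. Nearly all of this change of 0.93 lay in KDM4B (exact permutation test, p = 0.1, no overlap).

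KDM1A, also called LSD1, the catalytic subunit of the CoREST complex, lies on chromosome 1 (23019448 to 23083689, plus strand). It had the most reads of the 10 genes, with 216, 206 and 207 CPM in shCtrl and 265, 268 and 255 CPM in shRBM39. It rose by 0.33 (SE 0.04, adjusted p = 3.01e-09, edgeR), to 1.25 times control, and every shRBM39 library was above every shCtrl library. KDM1A, KDM5A, KDM4B, KDM5B and KDM6B kept their direction and their call in all 17 other fits. Their log2 fold changes ran there from 0.20 to 0.35 for KDM1A, 0.16 to 0.39 for KDM5A, -0.98 to -0.71 for KDM4B, -1.10 to -0.67 for KDM5B and -1.19 to -1.02 for KDM6B.

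KDM3A (chromosome 2, 86440647 to 86492716, plus strand), an H3K9 demethylase and a textbook target of hypoxia-inducible factor, was at 59.8, 53.7 and 58.5 CPM in shCtrl and 49.8, 56.5 and 53.6 CPM in shRBM39. The groups overlapped through replicate 2 of each, and the log2 difference of -0.11 (SE 0.05) had an adjusted p of 0.0684 (edgeR). It passed the threshold in 7 of the other fits, among them those without shCtrl replicate 2 (-0.15, adjusted p = 0.0191) and without shRBM39 replicate 2 (-0.14, adjusted p = 0.0336). In the other direction, it was -0.01 (adjusted p = 0.867) with the GC and length correction, -0.05 (0.412) without shRBM39 replicate 1 and -0.07 (0.311) without shCtrl replicate 1. Its relative KDM3B had a log2 difference of 0.00 (SE 0.04, adjusted p = 0.994). The ratio of KDM3A to KDM3B differed by -0.11 with overlapping groups (exact permutation test, p = 0.3).

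KDM2B (chromosome 12, 121429097 to 121581015, minus strand), the CpG island reader of Polycomb complex PRC1.1, was at 36.8, 38.6 and 36 CPM in shCtrl and 41.1, 37.2 and 38.5 CPM in shRBM39. The groups overlapped, with a log2 difference of 0.07 (95% interval -0.04 to 0.18, adjusted p = 0.259, edgeR). It was called higher once each library was corrected for its trend with GC content and gene length (0.18, adjusted p = 0.00251), and was -0.05 with library totals. Of its exon bases in the count table, 663 are also listed under genes of the opposite strand, as do 464 bases of KDM4A and 182 of KDM5A. The sources used here do not state whether counting used the strand or how reads over shared bases were assigned. Such reads of these 3 genes may have been left out, or may belong to those neighbours.

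**Figure D2:**
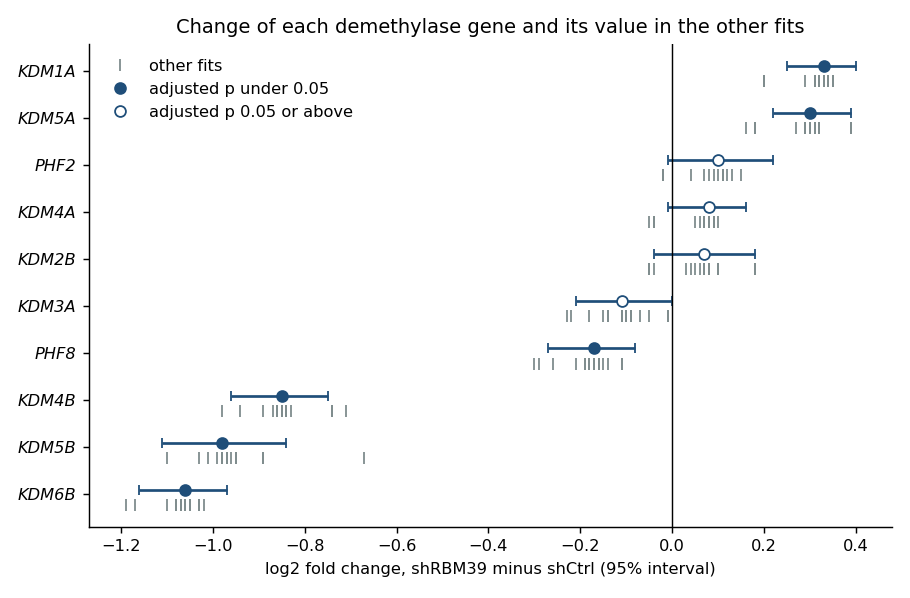
Log2 fold change of each demethylase gene, shRBM39 minus shCtrl, with its 95% interval (circles, filled where the adjusted p was under 0.05 in edgeR), and below each the values of the 17 other fits (grey ticks). KDM4B, KDM5B and KDM6B lie between -1.06 and -0.85 and KDM1A and KDM5A at 0.33 and 0.30, while ticks of PHF2, KDM2B and KDM4A fall on both sides of 0.

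Levels between genes were compared only per length, on the RPKM scale (reads per kilobase of exon, scaled to the library total). In shCtrl, KDM1A stood highest with a mean of 40.2 RPKM ± 0.698 (SD, n = 3), followed by KDM4A at 13.7, KDM6B at 13.5 and PHF8 at 7.07 ± 0.197 (SD, n = 3). Below these lay KDM5A at 6.81, PHF2 at 6.4, KDM3A at 4.45, KDM4B at 3.82, KDM2B at 2.83 and KDM5B at 2.29 RPKM. The libraries of PHF8 overlapped those of KDM5A, and those of KDM5A overlapped PHF2, and all other neighbours in this order were separated. On this scale PHF8 was in the middle of the list. The length used is that of all merged exons of a symbol, from 5172 bases for KDM4A to 14716 for KDM4B. The length of the transcripts expressed in these cells was not measured, so the order in both groups holds only for this length.

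In shRBM39 the order was KDM1A at a mean of 46.3 RPKM, KDM4A at 13.3, KDM5A at 7.71, PHF2 at 6.3, KDM6B at 5.91 and PHF8 at 5.75 ± 0.185 (SD, n = 3). KDM3A at 3.8, KDM2B at 2.72, KDM4B at 1.94 and KDM5B at 1.07 RPKM closed it. Here the libraries of KDM6B and PHF8 overlapped, and all other neighbours were separated. KDM6B moved from the third place to the fifth and PHF8 from the fourth to the sixth, behind PHF2, while KDM1A stayed first and KDM5B last. RPKM values are scaled to library totals, so differences between groups are smaller or more negative on that scale than in CPM with TMM factors.

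**Figure D3:**
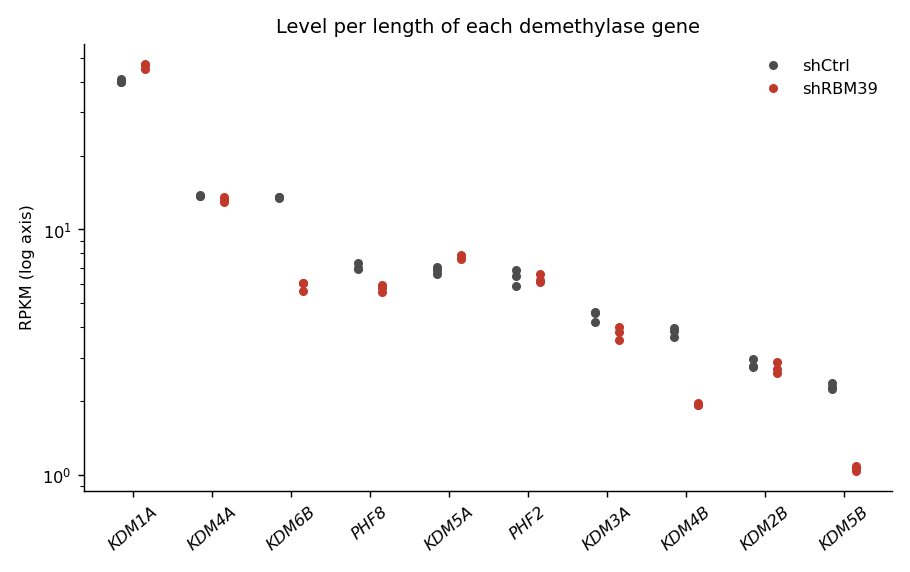
RPKM of each demethylase gene in the 6 libraries on a log axis, ordered by the mean in shCtrl, with 1 point per library. KDM1A lies near 40.2 RPKM in shCtrl and KDM5B near 2.29, and KDM6B drops from 13.5 to 5.91 RPKM, to the level of PHF8.

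The ratios of related genes were the direct test of whether relatives changed unequally. Of the 5 ratios, 4 had groups that did not overlap, and each of these had p = 0.1 in the exact two-sided permutation test, with 0.125 after Benjamini-Hochberg adjustment over the 5. Since 0.1 is the smallest p that 3 against 3 libraries can give, none could pass 0.05. KDM5A to KDM5B and KDM4A to KDM4B rose, PHF8 to PHF2 and KDM6B to KDM6A had lower values in shRBM39, and KDM3A to KDM3B had overlapping values.

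**Figure D4:**
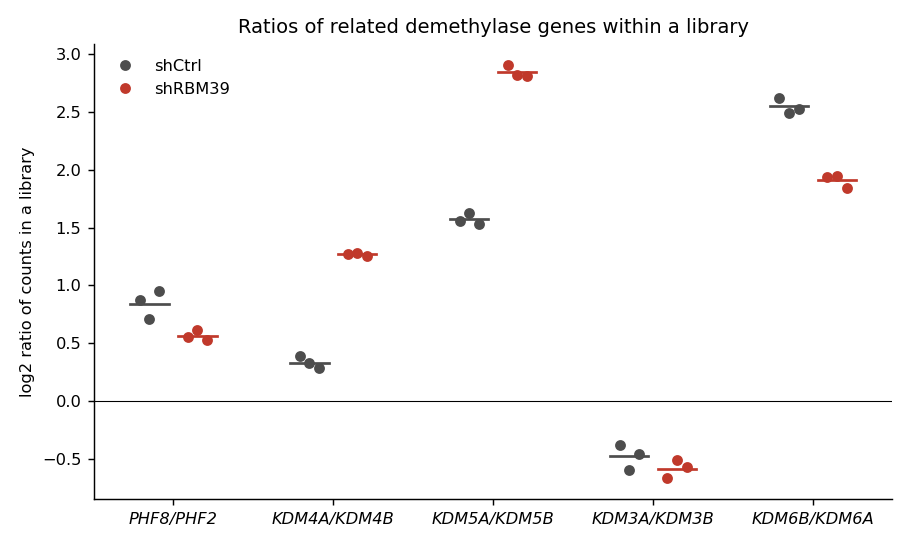
Log2 ratio of the counts of related demethylase genes within each library (points) with the group mean (line), shCtrl in grey and shRBM39 in red. The means go from 1.57 to 2.85 for KDM5A/KDM5B and from 0.33 to 1.27 for KDM4A/KDM4B, and only KDM3A/KDM3B has overlapping groups.

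Among 7111 other genes averaging 20 CPM or more, those whose centred log2 CPM values over the 6 libraries lay nearest to PHF8 were LRRFIP1, FLII, SCRIB, FAF1 and SUN1, with root mean square differences of 0.021, 0.021, 0.023, 0.024 and 0.024. Their log2 fold changes were -0.17, -0.18, -0.20, -0.16 and -0.18. That these are near the value of PHF8 follows from choosing the genes by likeness over the same libraries. On the list of 10 the nearest gene was KDM3A, with 0.084, and the farthest KDM6B, with 0.446. These distances, too, largely restate the differences in fold change.

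The other demethylases looked up numbered 14, of which 13 were tested. Of these, 2 were called higher and 5 lower and 6 were not called, with a median log2 fold change of -0.04 beside -0.01 over all tested genes. This is 53.8% called, near the 59.1% of all tested genes. With library totals, 9 were called lower. The largest decreases after KDM7A were those of JMJD1C, a relative of KDM3A, at -0.57 (79.5 to 53.4 CPM, SE 0.05, adjusted p = 4.56e-13), and of KDM1B, the relative of KDM1A, at -0.53 (SE 0.05). The increases were those of RIOX1, a ribosomal oxygenase listed as C14orf169, at 0.63 (7.34 to 11.4 CPM, SE 0.09, adjusted p = 3.86e-07), and of JMJD6, a lysyl hydroxylase of splicing factors, at 0.30 (SE 0.05, adjusted p = 2.74e-06).

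KDM1A works within the CoREST complex, and of 11 partner genes 3 were called higher and 6 lower (81.8% called, against 59.1% of all tested genes, 29.2% higher and 29.9% lower), with a median of -0.20. With library totals 1 was higher and 7 lower with a median of -0.32, and the GC and length correction gave a median of -0.09. The scaffold gene RCOR2 fell from a mean of 55.7 to 28.2 CPM (-0.98, SE 0.05, adjusted p = 2.19e-17) and PHF21A, which reads the unmethylated H3K4 that KDM1A leaves, by 0.62. The deacetylase gene HDAC1 rose by 0.19, without a call under library totals and on RPKM. KDM1A itself rose, as given above, while RCOR1 (-0.26) and RCOR3 (-0.28), the other scaffold genes, fell like RCOR2. Of 9 partners of KDM2B in PRC1.1, 2 were called higher and 4 lower (66.7% called, near the share of all tested genes), with a median of -0.17. The median was -0.08 without shCtrl replicate 2, -0.10 without shRBM39 replicate 2 and -0.11 without shRBM39 replicate 3, and with library totals 6 were called lower. The ubiquitin ligase gene RNF2 rose by 0.39 and SKP1 by 0.32, and YAF2 and RYBP, alternative subunits of the complex, fell by 0.31 and 0.26.

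Among 10 partners of PHF8, PHF2 and the KDM5 enzymes, 5 were called higher and 3 lower, beside 29.2% and 29.9% of all tested genes, with a median of 0.08 that was -0.04 with library totals. The number called higher was not stable: it was 3 without shCtrl replicate 3, without shRBM39 replicate 2, with DESeq2, with library totals and on RPKM, and 7 with the GC and length correction. E2F1, a cell cycle factor that works with PHF8 and HCFC1, rose from 12.8, 13.2 and 11.1 to 25.1, 22.9 and 23.5 CPM (0.95, SE 0.07, adjusted p = 3.44e-13). MORF4L1, a reader of H3K36 methylation found with KDM5 enzymes, rose by 0.79. ARID5B, the DNA-binding partner of PHF2, fell from 36.1, 38.8 and 39.9 to 23.8, 21.1 and 25.2 CPM (-0.70, SE 0.06, adjusted p = 4.85e-12). ZNF711, which brings PHF8 to its targets, fell by 0.54 from 35.3, 35.4 and 39.3 to 24.8, 23.1 and 27.4 CPM. HCFC1, the coactivator found with PHF8 and E2F1, rose by 0.29 (SE 0.04, adjusted p = 2.14e-07), so partners of PHF8 went both ways.

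The opposing enzymes, histone lysine methyltransferases, were represented by 23 genes, of which 6 were called higher, 10 lower and 7 not called, with a median of -0.03. This is 69.6% called, beside 59.1% of all tested genes (29.2% higher and 29.9% lower). SETDB2 fell by 0.93 (SE 0.08, adjusted p = 3.12e-12) and ASH1L by 0.43. SUV39H1, which writes the trimethyl H3K9 that KDM4 enzymes remove, rose by 0.42 (SE 0.07, adjusted p = 3.04e-06), and SUV39H2 by 0.24, a call that was lost in 8 of 17 other fits, among them those without shCtrl replicate 1 (0.19), shRBM39 replicate 2 (0.20) and shRBM39 replicate 3 (0.22). With library totals 1 was called higher and 14 lower.

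Jumonji enzymes use oxygen and 2-oxoglutarate, so genes around both were looked up too. Of 12 oxygen-responsive genes, 9 were called lower and 1 higher, beside 29.9% and 29.2% of all tested genes, with a median of -0.86 beside -0.01 over all genes. VEGFA, an angiogenic factor, fell from 226, 244 and 232 to 71.2, 84.7 and 83.3 CPM (-1.56, SE 0.05, adjusted p = 6.15e-24), and EGLN3, a hydroxylase that acts on hypoxia-inducible factor, fell by 1.62 (SE 0.10, adjusted p = 5.12e-16). LDHA, which makes lactate, was the gene called higher (0.24, SE 0.04), with no call on RPKM. KDM3A and KDM4B are also known oxygen-responsive genes, and here KDM4B fell (-0.85) while KDM3A was not called (-0.11). No label gives a difference in oxygen between the groups.

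Of 16 genes that make or use 2-oxoglutarate, or succinate and fumarate, 12 were called higher and 2 lower, beside 29.2% and 29.9% of all tested genes, with a median of 0.23 beside -0.01. IDH3B, a subunit of mitochondrial isocitrate dehydrogenase, rose from 118, 114 and 120 to 174, 179 and 177 CPM (0.59, SE 0.04, adjusted p = 2.35e-15). GOT1 and IDH2 fell by 0.18 and 0.13, calls that DESeq2 did not make, and IDH2 was not called without shCtrl replicate 3 (-0.11) or shRBM39 replicate 1 (-0.09). With library totals 8 of the 16 were called higher and 3 lower, with a median of 0.11.

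**Figure D5:**
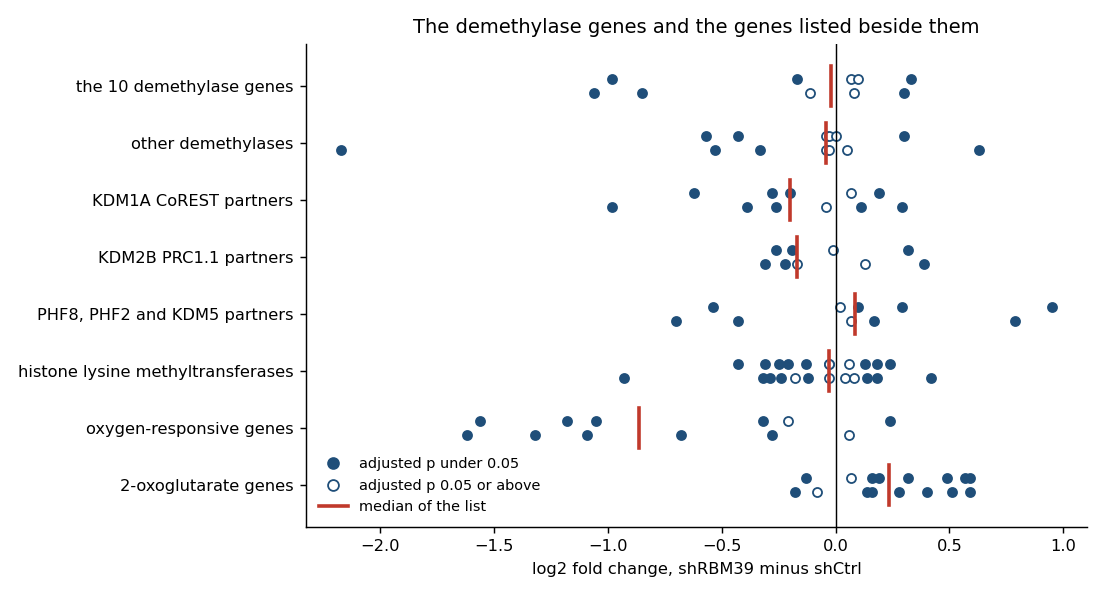
Log2 fold change, shRBM39 minus shCtrl, of the 10 demethylase genes and of each tested gene in the 7 lists beside them, with 1 circle per gene (filled where the adjusted p was under 0.05 in edgeR) and a red bar at the median of each list. The oxygen-responsive genes have a median of -0.86, the 2-oxoglutarate genes 0.23, and the single circle at -2.17 is KDM7A.

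Splicing was looked up in the deposited table of rMATS records, which names an exon only where inclusion differed between the groups. None of its 1582 records, over 1198 gene symbols, belonged to any of the 10 demethylase genes (0 records), including PHF8. The table holds only records that passed a p-value and a minimum difference, so events of these genes without such a difference were not analysed here, and a count of 0 does not show that their splicing was the same. Of the 94 tested genes in the lists, 7 had a record each, namely EHMT2, EHMT1, KMT5C, EMSY, ZMYM2, OGDH and D2HGDH. Over the whole series 1198 symbols had a record, beside 18243 symbols tested for counts, a share near that of the lists. At such a share a list of 10 genes can easily have no record. The table calls its groups 1 and 2 and does not say which is the knockdown. In all 7, inclusion (for mutually exclusive exons, that of the first) was lower in group 1, as in 68.5% of all records.

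The record with the most reads in a single-exon event was that of EHMT2, which encodes G9a, the methyltransferase for the H3K9 marks that KDM3A and PHF8 remove. It concerns exon 10 of the 28 exons of the canonical transcript, at chr6:31888969-31889070 on the minus strand (GRCh38), a coding exon of 102 bases, which is a multiple of 3. The exon was included at a level of 0.391, 0.355 and 0.492 in the libraries of group 1, against 0.593, 0.611 and 0.640 in those of group 2, on 118 to 146 reads per library. The groups did not overlap and differed by -0.202, given as a description because the record was listed for this difference. EHMT2 counts were higher in shRBM39 by 0.14 (SE 0.04, adjusted p = 0.00278, edgeR). The exon is printed in capitals with 20 intron bases on each side, 5′ to 3′, from chr6:31888949-31889090, because it is the 1 well-covered exon among these records whose skipping keeps the reading frame.
EHMT2: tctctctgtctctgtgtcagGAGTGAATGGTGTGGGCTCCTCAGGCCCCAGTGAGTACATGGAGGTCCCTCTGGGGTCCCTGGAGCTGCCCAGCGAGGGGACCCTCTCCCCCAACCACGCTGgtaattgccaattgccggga
EHMT1, the partner of EHMT2, had a mutually exclusive pair of exons, the first included at 0.592, 0.632 and 0.554 in the libraries of group 1, against 0.653, 0.723 and 0.705 in those of group 2, on 88 to 105 reads. The records of KMT5C (7 to 10 reads per library), ZMYM2 (3 to 15) and D2HGDH (4 to 19) rested on under 20 reads in every library. That of EMSY (11 to 29) did so in at least 1 library. The groups overlapped for KMT5C, EMSY and ZMYM2. The OGDH record had 24 to 50 reads per library, of which only 2 to 8 were inclusion reads.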

How the data were processed

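Libraries were made with a stranded mRNA kit that adds unique identifiers, 3 for shCtrl and 3 for shRBM39, as the sample titles give them. Columns named NC were read as shCtrl, the control group of the series. The submitters' processing notes name Trimmomatic 0.36, STAR 2.5.3a, featureCounts (Subread 1.5.1), edgeR 3.12.1 and GRCh38. Deposited by the authors were unnormalized counts for each symbol over its merged exons, and RPKM values scaled to exon length and library total. Annotation release, multi-mapped reads, strand setting and collapse of identifiers are not given in the sources used here. The authors also deposited rMATS splicing records with reads and inclusion levels per library. Their columns of p-values, FDRs and group differences, and a tally of events, were not used.

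The test across genes was that of edgeR 4.0.16 under R 4.3.3, using filterByExpr, TMM and quasi-likelihood fits on group alone, and p-values were adjusted (Benjamini-Hochberg) over 18243 genes, with calls at 0.05. SEs come from the fold change and its F statistic, and 95% intervals from that SE. Library totals of 18042924 to 20428901 counts limit the precision together with the spread between replicates. No pair of replicates agreed within sampling noise (chi-square per degree of freedom 2.01 to 3.9), and p-values measure only the spread between these libraries. Ratios were tested by exact permutation. Alternatives were DESeq2 1.42.0, other scalings and filters, limma-trend (limma 3.58.1) on log2(RPKM + 1) and log2(RPKM + 0.1), a replicate block, a GC and length correction (splines, 5 degrees of freedom), an adjusted p under 0.01 and each library left out. The edgeR fit was also run on simulated counts with far fewer changed genes than here, which does not test the scaling of these data.

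Exons of the 10 genes were identical to GENCODE v44 exons on GRCh38 in 96.5% of cases. All 10 had promoter windows in RefSeq. The genes and lists were chosen with earlier results of these data known. Named were the 10 demethylases, RBM39, CDK5RAP2 and SNAI2, and in each list up to 2 called genes with the largest increase and 2 with the largest decrease at a mean of 5 CPM or more. KDM1B, KDM5C, KDM6A, KDM3B, RCOR1, RCOR3, HCFC1 and genes with splicing records were named besides, as relatives or for their record, some after their values were seen. RIOX1, RIOX2, NSD2 and NSD3 were found under older symbols. Some genes that this rule would name are not reported here.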

Additional observations from a re-analysis of the deposited data

How the results depend on the processing

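Over 18 alternatives the 6 called demethylase genes (PHF8, KDM1A, KDM4B, KDM5A, KDM5B and KDM6B) kept their direction and call, and the number called among the 10 went from 6 to 8 as PHF2, KDM2B or KDM3A were added. Over all genes 8559 (DESeq2) to 11146 (library totals) were called, 10138 to 10263 with 1 library left out. With library totals, and on RPKM with a pseudocount of 1 and of 0.1, PHF2 was at -0.02, -0.02 and -0.02, KDM2B at -0.05, -0.04 and -0.05 and KDM4A at -0.05, -0.04 and -0.04, with no call; these scalings shift the median of all genes down. As TMM-scaled CPM per kilobase, PHF8 was at 6.78 in shCtrl and 6.01 in shRBM39, a shift that the TMM factors make. With 1 library left out, PHF8 ran from -0.19 to -0.14, its ratio to PHF2 from -0.34 to -0.22, KDM4A to KDM4B from 0.90 to 0.96, KDM5A to KDM5B from 1.25 to 1.31, KDM3A to KDM3B from -0.17 to -0.06 and KDM6B to KDM6A from -0.67 to -0.60. Same-numbered libraries did not deviate together (r of 0.00615, -0.0459 and 0.0366 over 12058 genes). No pairing by number was seen, though these values cannot exclude one. With the replicate block 10810 genes and 6 of the 10 were called, PHF8 was at -0.17 (adjusted p = 0.00137, edgeR), and exact sign flips cannot go below p = 0.25. No record of these genes had 20 or more reads, as there was none, so the other splicing alternatives give no value for them. Among the listed genes with a record, the difference of D2HGDH went from -0.227 to -0.116 without the correction for effective length.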
